A study of Mus musculus with 4 samples.

Results

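The Notch genes described here are 3 receptors (Notch1, Notch2, Notch3), 3 ligands (Jag1, Jag2, Dll1) and 3 genes switched on by the pathway (Hes1, Hey1, Nrarp). They were taken by symbol: every probe set annotated with exactly one of these symbols was included, which gave 16 probe sets for the 9 genes out of 45037 probe sets (18193 genes with a symbol of their own) that are not controls. A probe set is a group of short probes for 1 transcript, summarised as 1 intensity per array. The samples were 4 one-colour arrays hybridised with total RNA labelled as from mouse mesangial cells, the contractile cells between the capillaries of the kidney glomerulus. There were 2 arrays labelled low glucose and 2 labelled TGF-beta1, for the cytokine transforming growth factor beta 1, known for its role in scarring of the glomerulus, whose stated purpose is to find genes that TGF-beta1 regulates in these cells. The low glucose arrays are described as belonging to a comparison with high glucose and glucosamine, so they were not labelled as controls for TGF-beta1. The mouse strain, the origin of the cells, the TGF-beta1 dose, the time and the glucose level of the TGF-beta1 arrays were not found in the labels, so a difference in glucose cannot be told apart from TGF-beta1. In a bulk sample, fewer cells of a type and less RNA per cell cannot be told apart either.

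Notch receptors sit in the cell membrane and are bound by Jagged and Delta-like ligands on neighbouring cells. Binding lets an ADAM protease and then gamma-secretase cut the receptor, and the freed intracellular part joins the DNA-binding protein RBPJ and a Mastermind co-activator to switch on target genes. The classic targets are the Hes and Hey repressors and Nrarp, which feeds back to dampen the signal. In the kidney, Notch2 is needed to form the proximal parts of the nephron, and Notch3 is best known from vascular smooth muscle cells and pericytes.

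In TGF-beta1, the ligand gene Jag1 and the target gene Hes1 rose and the receptor gene Notch1 fell, each by about the same small step: 0.27 for Jag1, 0.21 for Hes1 and -0.27 for Notch1 on the log2 scale. The other 6 genes did not pass. Differences are TGF-beta1 minus low glucose on quantile-normalised log2(intensity + 46.88), which understates the change of dim probe sets. A gene is said to have risen or fallen where limma, with the array pair as a block, gave an adjusted p under 0.05. The array pairs are 2 sets of arrays, each with 1 array of either group, that match in the control RNA added before hybridisation: low glucose replicate 1 with TGF-beta1 replicate 2 (pair 1), and low glucose replicate 2 with TGF-beta1 replicate 1 (pair 2). The titles of both arrays of pair 1 carry the same repeat tag, whose meaning they do not give, and those of pair 2 do not match. Of the 16 member probe sets 15 passed the filter on dim probe sets and were tested, of which 2 rose and 1 fell. Over all 27022 tested probe sets 6.94% rose and 8.92% fell, so the count of members called lies near that of the array as a whole. Without the block, limma called 0 of the members and 0% of all tested probe sets (smallest adjusted p = 1). That fit had 0 members and 443 of all tested probe sets at an unadjusted p under 0.05. The calls below therefore rest on the block, and also on the spread it assumes: with 1 residual degree of freedom, each probe set took the spread of probe sets of its brightness, and limma with the block called 0 (3915 at an unadjusted p under 0.05) once it took the prior that limma estimated when no block was fitted.

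The array pairs moved most members more than the treatment did. In 13 of the 15 tested member probe sets the difference between the pairs was larger than that between the groups, and over all tested probe sets this held for 77.1%. The arrays correlated across probe sets at 0.994 and 0.992 within the pairs and at 0.971 and 0.97 within the groups, where probe sets are not independent replicates. Array medians ran from 78.28 to 99.62 in deposited intensity. No label states whether the arrays of 1 group came from different cultures. The spread behind the p-values may therefore be technical, and 2 arrays a group limit the precision.

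**Figure D1:**
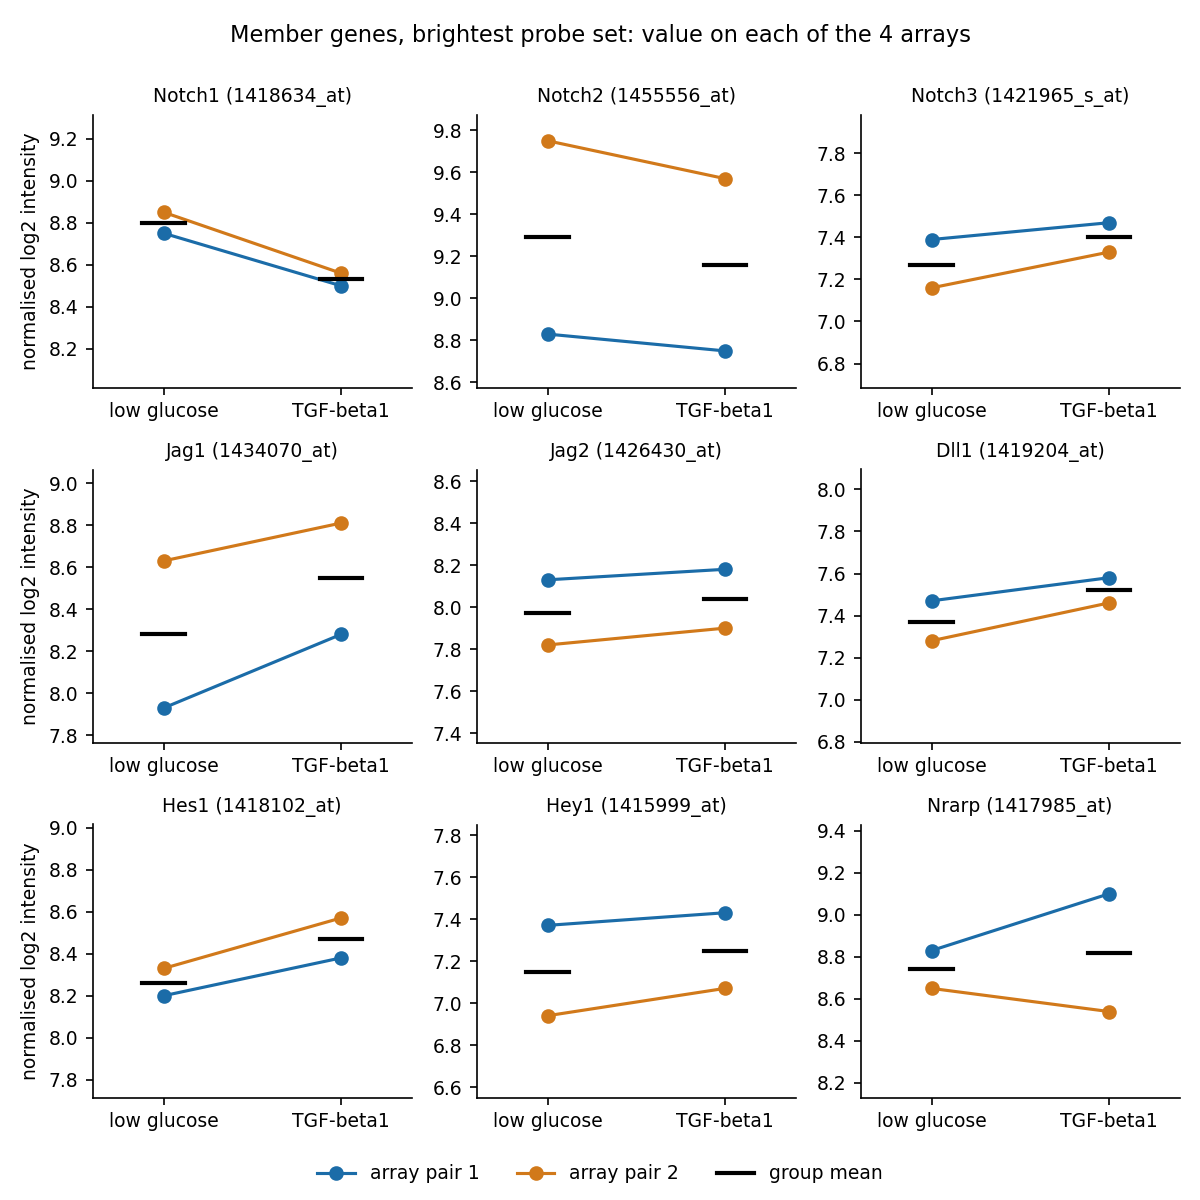
Normalised log2 intensity of the brightest probe set of each of the 9 genes on the 4 arrays (points), joined within array pair 1 (blue) and pair 2 (orange), with group means as black bars; every panel spans the same height. Notch1 is lower on both TGF-beta1 arrays, with values of 8.56 and 8.50 against 8.75 and 8.85, and Hes1 higher, with 8.57 and 8.38 against 8.20 and 8.33, while the pairs lie far apart for Notch2 and Jag1.

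Among the receptors, Notch1 had the clearest difference. Its brighter probe set (1418634_at) read 393 and 409 with low glucose against 326 and 320 with TGF-beta1 in deposited intensity. Both TGF-beta1 arrays were below both low glucose arrays, as for 10.2% of all tested probe sets. Every ± here and below is an SE that took the spread of probe sets of like brightness. Such an SE does not widen where the pairs of a probe set disagree. On the normalised scale this Notch1 probe set fell by 0.27 ± 0.076 (n = 2 arrays a group, 1.20-fold, adjusted p = 0.00504 with limma and the block), with -0.25 within pair 1 and -0.28 within pair 2. It was between -0.22 and -0.31 whichever array was left out, although each of those fits, made without the block, gave an adjusted p of 1. The other Notch1 probe set (1418633_at) did not share the difference. It was at -0.04 ± 0.064, with normalised log2 values of 7.62 and 7.53 with low glucose against 7.48 and 7.59 with TGF-beta1, so the fall rests on 1 of the 2 probe sets.

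Notch2, the receptor with the widest gap between the array pairs, did not pass. Its brighter probe set (1455556_at) stood at 8.83 and 9.75 with low glucose against 9.57 and 8.75 with TGF-beta1 on the normalised log2 scale. The pairs were thus 0.87 apart, and the ranges of the groups overlapped. The difference between the groups was -0.13 ± 0.081 (95% interval from -0.29 to 0.03; -0.07 and -0.18 within the pairs), and leaving out replicate 2 turned it to 0.34 (low glucose) or 0.28 (TGF-beta1). The dimmer Notch2 probe set (1451889_at) was at -0.01 ± 0.077, with opposite signs within the pairs (-0.06 and 0.05). For Notch3 the probe set that passed the filter (1421965_s_at) stood at 7.39 and 7.16 with low glucose against 7.33 and 7.47 with TGF-beta1, a difference of 0.12 ± 0.066 (-0.01 to 0.25; adjusted p = 0.213 with limma and the block). Its ID marks a probe set that may match several transcripts. The other Notch3 probe set (1421964_at) was the 1 member below the filter, with deposited intensities between 30.2 and 36.4 on the 4 arrays, and was not tested.

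Of the ligands, Jag1 rose. Its brightest probe set (1434070_at) read 209 and 343 with low glucose against 397 and 271 with TGF-beta1 in deposited intensity. Within each pair the TGF-beta1 array was the higher one, but the groups overlapped, because the pairs differed by 0.61 on the normalised log2 scale. The rise was 0.27 ± 0.072 (1.21-fold; adjusted p = 0.00263 with limma and the block), with 0.35 within pair 1 and 0.18 within pair 2. Leaving out 1 array unbalances the pairs, and the Jag1 difference then became -0.08 or 0.62 with the first or second low glucose array left out, and 0.00 or 0.53 with the first or second TGF-beta1 array left out. The 2 dimmer Jag1 probe sets did not pass, at 0.11 ± 0.071 (1421106_at; 0.12 and 0.10 within the pairs) and 0.03 ± 0.074 (1421105_at; 0.05 and 0.01).

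The second Jagged ligand, Jag2, gave no common direction. Its probe set 1426430_at stood at 8.13 and 7.82 with low glucose against 7.90 and 8.18 with TGF-beta1, a difference of 0.07 ± 0.066 (-0.06 to 0.20). The probe set 1426431_at stood at 8.12 and 7.86 with low glucose against 7.83 and 8.0 with TGF-beta1 and was at -0.08 ± 0.066 (-0.21 to 0.05). Dll1, a ligand of the Delta family, was closer to the threshold. Its only probe set (1419204_at) stood at 7.47 and 7.28 with low glucose against 7.46 and 7.58 with TGF-beta1, a difference of 0.15 ± 0.065 (0.02 to 0.27; adjusted p = 0.108 with limma and the block), with 0.11 and 0.18 within the pairs. The interval takes the shared spread as known and stays above 0 (unadjusted p = 0.0231 with limma and the block). The unadjusted p was 0.0706 with the block and the prior of the fit without it, and 0.381 with limma without the block. Dll1 did not pass once all tested probe sets were counted.

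Of the target genes, Hes1, a repressor of the basic helix-loop-helix family, rose. Its only probe set (1418102_at) read 257 and 267 with low glucose against 326 and 292 with TGF-beta1 in deposited intensity, so that both TGF-beta1 arrays were above both low glucose arrays, as for 9.54% of all tested probe sets. The rise was 0.21 ± 0.072 (1.16-fold; adjusted p = 0.0275 with limma and the block), with 0.18 and 0.24 within the pairs. Its adjusted p was 0.0752 with arrays centred on their medians and 0.0531 with no filter, and its difference was 0.12 or 0.14 with replicate 1 of TGF-beta1 or of low glucose left out, and up to 0.30 otherwise.

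Hey1, the related repressor, stood at 7.37 and 6.94 with low glucose against 7.07 and 7.43 with TGF-beta1 (1415999_at). Its difference of 0.10 ± 0.069 did not pass (-0.04 to 0.23; 0.06 and 0.14 within the pairs), and that interval also holds the value found for Hes1. Whether Hes1 and Hey1 differed from each other was not tested. The feedback gene Nrarp was the 1 gene whose brightest probe set went opposite ways in the pairs. That probe set (1417985_at) stood at 8.83 and 8.65 with low glucose against 8.54 and 9.10 with TGF-beta1, which is 0.28 within pair 1 and -0.11 within pair 2, and 0.08 ± 0.077 in all. Its second probe set (1417986_at) was at 0.12 ± 0.065 (0.13 and 0.10 within the pairs).

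**Figure D2:**
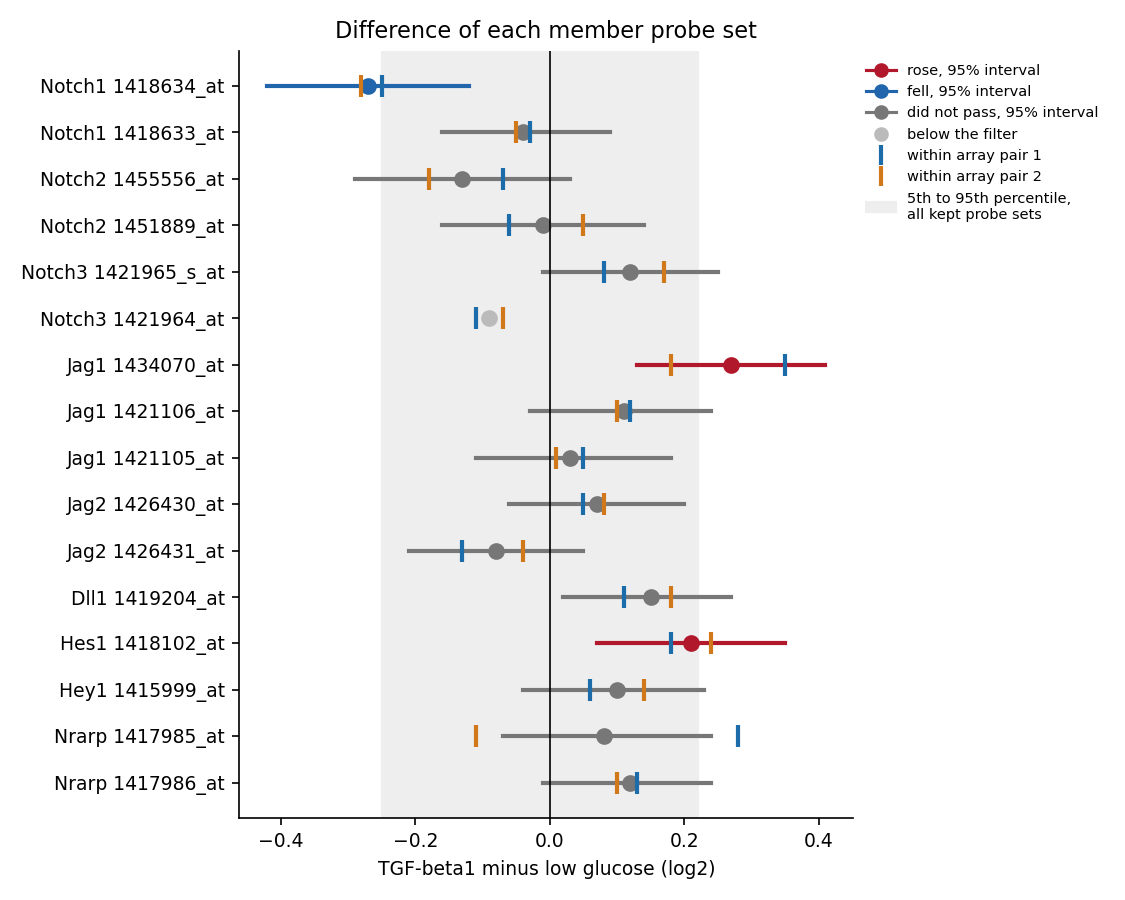
TGF-beta1 minus low glucose on the log2 scale for each of the 16 member probe sets (circles), with the 95% interval of the blocked limma fit as a bar, the differences within the pairs as ticks, and the 5th to 95th percentile of all tested probe sets (-0.25 to 0.22) shaded. The Jag1 and Notch1 probe sets that passed lie outside the shaded range at 0.27 and -0.27, and Hes1 lies just inside it at 0.21.

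In both called genes with more than 1 probe set, Notch1 (-0.27 and -0.04) and Jag1 (0.27, 0.11 and 0.03), the brightest gave the call and the others gave less. This did not hold for every gene: Nrarp, which did not pass, was at 0.08 on its brightest probe set and 0.12 on the dimmer one. The probe sets of Jag1 all lay above 0 and those of Notch1 below it. The median difference over the 16 member probe sets, including the 1 below the filter, was 0.076, against 0.003 over all tested probe sets. Of the 15 tested members 13 had the same sign within both pairs, and of all tested probe sets 66.6% did.

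**Figure D3:**
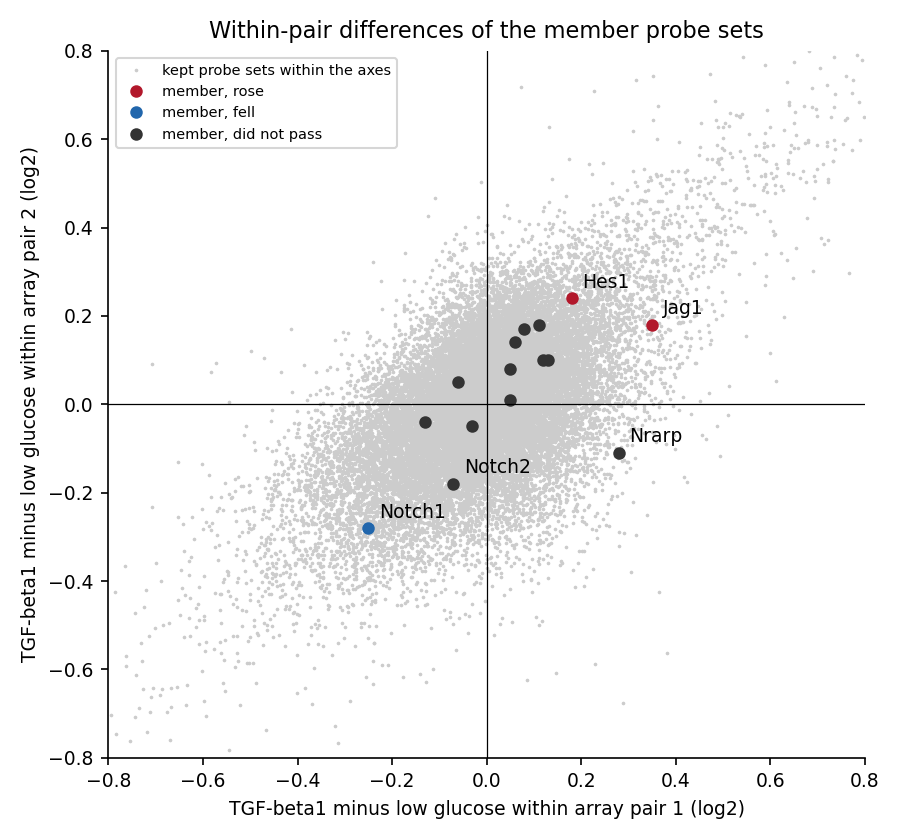
Difference between TGF-beta1 and low glucose within array pair 1 (horizontal) and within array pair 2 (vertical), both on the log2 scale, for the 15 tested member probe sets (large points) over all tested probe sets inside the axes (grey). Jag1 (0.35 and 0.18), Hes1 (0.18 and 0.24) and Notch1 (-0.25 and -0.28) lie away from its centre but inside the grey cloud, and Nrarp (0.28 and -0.11) lies below its diagonal.

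The sequences just upstream of the start of the 2 called genes that had an entry, Jag1 and Notch1, follow, with that of Nrarp, which held the most motif matches of the members. They are the 250 bases before the annotated start in RefSeq (build GRCm38.p6), 5′ to 3′ on the gene's strand, where 7 of the 9 genes had an entry (8 windows, with 2 for Dll1) and Hes1 and Hey1 had none. Capitals mark matches, on either strand, to the RBPJ core TGGGAA, the SMAD box CAGAC, the AP-1 site TGANTCA or the Hes-type N-box CACNAG. SMAD proteins carry the TGF-beta signal to DNA.

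Jag1, chr2:137116521-137116770, minus strand: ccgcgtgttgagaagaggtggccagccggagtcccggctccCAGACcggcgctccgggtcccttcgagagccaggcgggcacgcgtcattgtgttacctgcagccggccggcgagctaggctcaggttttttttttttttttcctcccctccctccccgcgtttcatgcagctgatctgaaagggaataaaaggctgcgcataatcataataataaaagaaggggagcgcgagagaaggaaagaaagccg

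Notch1, chr2:26503823-26504072, minus strand: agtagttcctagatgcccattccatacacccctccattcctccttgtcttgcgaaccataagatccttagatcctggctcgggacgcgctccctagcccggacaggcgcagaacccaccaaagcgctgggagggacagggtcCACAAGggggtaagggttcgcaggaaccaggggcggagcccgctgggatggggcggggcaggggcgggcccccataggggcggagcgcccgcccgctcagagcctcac

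Nrarp, chr2:25180508-25180757, plus strand: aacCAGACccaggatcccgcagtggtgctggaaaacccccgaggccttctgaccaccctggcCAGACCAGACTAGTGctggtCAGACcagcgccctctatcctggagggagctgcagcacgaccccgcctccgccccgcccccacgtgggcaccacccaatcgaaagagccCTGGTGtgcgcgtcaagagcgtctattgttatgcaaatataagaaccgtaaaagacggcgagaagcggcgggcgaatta

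The Jag1 window held 1 match, a SMAD box from 209 to 205 bases before the start, and the Notch1 window held 1 N-box from 108 to 103 bases before it. The Nrarp window held 4 SMAD boxes and 2 N-boxes, and 1 of these N-boxes shares a base with a SMAD box. Over the member windows, 5 of 8 held a SMAD box (Notch3, Jag1, both of Dll1, Nrarp), against 42.2% of all 32851 windows. An N-box was found in 4 of 8 (Notch1, Notch2, Notch3, Nrarp), against 36.7%, and an AP-1 site in 1 (Dll1), against 6.75%. The RBPJ core was in 0 of 8, against 21.6%. Such short motifs are common, and a match or its absence says only which letters these windows hold.

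Of 63 genes of the pathway listed by role, members included, 58 had a probe set with 1 symbol, and for 53 the brightest one was tested: 5 rose and 4 fell, with a median of 0.017. These counts lie near those of the array, where 6.94% of all tested probe sets rose and 8.92% fell; with 1 probe set per gene, 2502 of 13565 genes passed in either direction. The differences that passed were at most 0.38 in size. Of the 44 tested genes that are not members, 3 rose and 3 fell, and 0 of all 53 had an unadjusted p under 0.05 with limma without the block.

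The sugar-adding enzymes that tune which ligand a receptor prefers gave a rise and a fall. Lunatic fringe, Lfng, which extends the sugar on the receptor, rose by 0.38 ± 0.068 (1.30-fold; adjusted p = 7.5e-07 with limma and the block). Its normalised log2 values were 7.86 and 8.01 with low glucose against 8.38 and 8.24 with TGF-beta1, with no overlap, and its dimmer probe set was at 0.09 ± 0.074. Its sister enzyme radical fringe, Rfng, fell by 0.28 ± 0.069 (adjusted p = 0.000838 with limma and the block), and its second probe set also fell, by 0.22 ± 0.065. Leaving out a low glucose array moved Rfng to -0.13 (replicate 1) or -0.43 (replicate 2). Pofut1, which puts the first sugar on the receptor, was at 0.00 ± 0.075, and of the 6 genes in this role the other 3 (Poglut1, Mfng and Eogt) did not pass either.

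For receptor cleavage 8 genes were tested, and 1 rose and 2 fell, against 6.94% and 8.92% over the array; no test sets so short a list apart from it. Furin, the protease that cuts the receptor on its way to the surface, rose by 0.32 ± 0.069 (0.30 and 0.34 within the pairs). Adam17, one of the proteases that shed the outer part of the receptor, fell by 0.22 ± 0.071 (-0.20 and -0.24), with its other 2 probe sets at -0.07 and -0.04. Adam10, the protease chiefly used after ligand binding, was at -0.13 ± 0.079. Aph1a, a gamma-secretase subunit, fell by 0.28 ± 0.079 (-0.20 and -0.36), but its pairs were 0.80 apart and its difference was 0.08 or -0.64 with the first or second low glucose array left out and 0.16 or -0.72 with the first or second TGF-beta1 array left out. Its other probe sets were at -0.05 and -0.09.

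In the nucleus, Rbpj, the DNA-binding partner of the cleaved receptor, was the 1 of 9 tested genes that rose, by 0.30 ± 0.079 (1.23-fold; adjusted p = 0.00258 with limma and the block). It stood at 8.83 and 8.82 with low glucose against 9.06 and 9.18 with TGF-beta1, a second probe set rose by 0.39 ± 0.078, and the last was at 0.10 ± 0.076 without passing. The co-activators Maml1 (0.02 ± 0.076) and Ep300 (-0.15 ± 0.082) did not pass, and the median of this list was -0.076. None of the brightest probe sets of the 13 trafficking and ubiquitin ligase genes passed, the lowest p being that of Mib1, a ligase that activates ligands, at 0.15 ± 0.064. A dimmer Mib1 probe set fell by 0.20 ± 0.065 (adjusted p = 0.0142 with limma and the block), so the probe sets of this gene disagree. Of the remaining ligands and Hes and Hey genes that were tested, Dll3 was at 0.14 ± 0.066, Hes7 at 0.16 ± 0.064 and Hes6 at -0.17 ± 0.079, and none passed. Notch4, Dlk1, Maml2, Hes2 and Hey2 were below the filter.

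**Figure D4:**
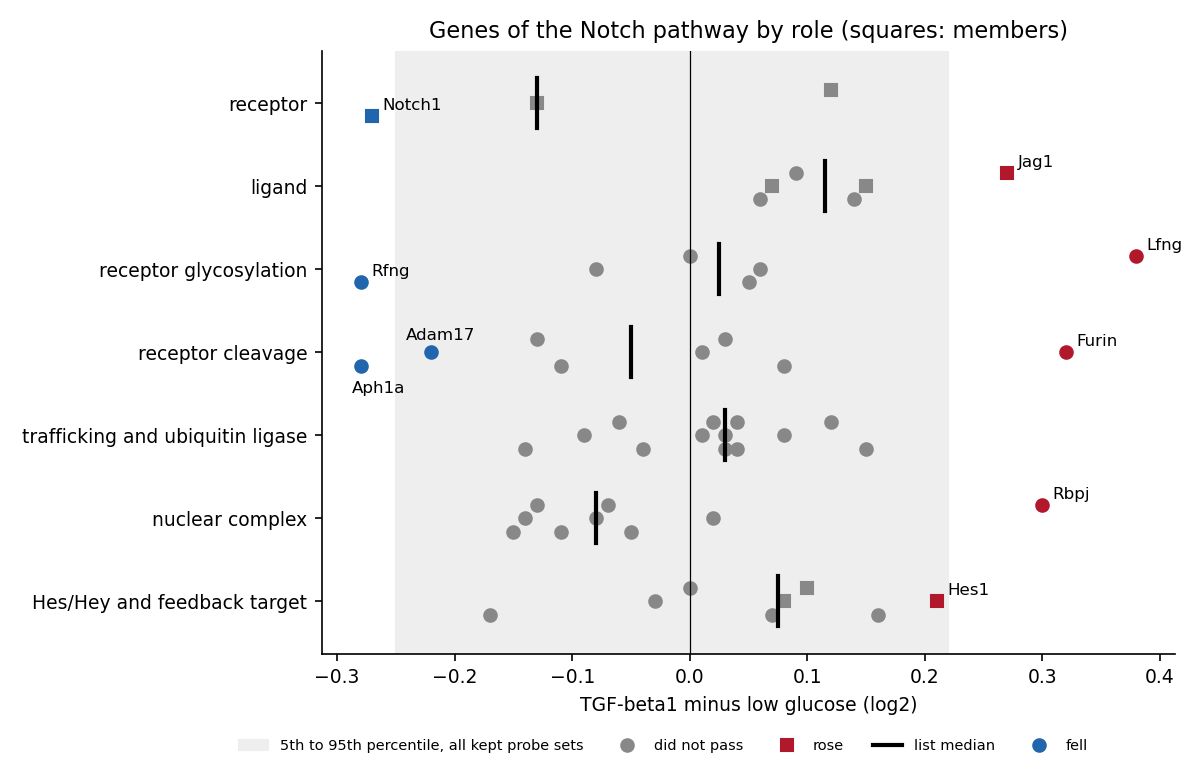
TGF-beta1 minus low glucose on the log2 scale for the brightest probe set of each tested gene of the Notch pathway, by role (members as squares), with list medians as black bars and the 5th to 95th percentile of all tested probe sets shaded. Of 53 genes 5 rose (Lfng, Furin, Rbpj, Jag1, Hes1) and 4 fell (Rfng, Aph1a, Notch1, Adam17).

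The 5 genes whose values over the 4 arrays were nearest to those of the Jag1 probe set of lowest p (Euclidean distance of mean-centred normalised log2 values) were Gtdc1 (0.025), Cd47 (0.026), Car5b (0.0272), Klf10 (0.0382) and Xiap (0.042). The array pairs were 0.59 to 0.64 apart in these 5 genes and 0.61 in Jag1, more than the groups. Klf10 is a zinc finger factor first described as induced by TGF-beta.

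Cell type markers were read for the arrays as a whole. Of 10 mesangial markers with a probe set 8 passed the filter, led by Mcam, Tbx18 and Des, and Thy1 and Gata3 were below it. Passing means only a mean at or above the 40th percentile. Mcam stood highest at 83.9, against 99 for the epithelial Krt18. Summed deposited intensities of the mesangial list were 1306 and 1061 with low glucose against 1238 and 1451 with TGF-beta1. These sums were below the epithelial ones given further on, but sums over different probe sets do not measure the share of a cell type. Krt18, Aqp1 and Cdh16 made up much of the epithelial sums, at 2602, 2301 and 2014 on low glucose replicate 1. Which cell types the RNA came from was not tested. Acta2 (0.32) and Mcam (0.34) rose. The groups overlapped for Mcam, at 8.82 and 8.43 with low glucose against 8.78 and 9.15 with TGF-beta1 on the normalised log2 scale. Rgs5 (-0.23) fell, with -0.45 within pair 1, -0.01 within pair 2 and overlapping groups. Endothelial markers passed in 3 of 10 (Ehd3, Flt1, Kdr), while Pecam1, Cdh5 and Tie1 were below the filter. Podocyte markers passed in 3 of 5 (Podxl, Nphs1 and Synpo), and Wt1 and Ptpro were below it. Podxl rose by 0.23 with overlapping groups, and Synpo fell by 0.58 without overlap. Macrophage markers passed in 6 of 7, with Csf1r, Cd14 and Adgre1 the brightest. Tubular epithelial markers passed in 9 of 11 (Krt18, Cdh16 and Aqp1 the brightest), and Cdh1 and Slc34a1 were below the filter. No marker was at 0. Summed deposited intensities of the epithelial list were 8921 and 8016 with low glucose against 8617 and 8626 with TGF-beta1, and 3 of its genes rose (Cldn4 by 1.08, Krt18 by 0.54, Krt8 by 0.40) and 3 fell (Aqp1 by 0.67, Cdh16 by 0.31, Lrp2 by 0.29). The Cldn4, Aqp1, Krt18 and Krt8 differences were larger than that of any Notch member, and these 4 had an unadjusted p under 0.05 with limma without the block, against 0 of the members. The macrophage sums were 2300 and 2108 with low glucose against 1788 and 1947 with TGF-beta1. Csf1r, which fell by 0.38, made up much of them, at 1658 and 1274 against 952 and 1269. The other 5 tested macrophage markers did not pass, with differences from -0.10 (Itgam) to 0.14 (Cd68), and Ptprc was below the filter. The part of these cell types in the Notch differences was not tested.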

How the data were processed

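The authors deposited 1 linear intensity per probe set and array (45101 probe sets, 64 of them controls). The summarising and scaling behind these values were not stated in the labels or file headers. Groups came from the sample titles, where replicate numbers only name arrays. Symbols came from the platform annotation: 34945 probe sets had 1, 932 several and 9160 none.

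From the deposited intensities, log2(intensity + 46.88) was taken (46.88 is the 25th percentile of the deposited values) and quantile-normalised. Probe sets below the 40th percentile of the mean were left out, and 27022 were tested with limma's lmFit and eBayes (two-sided, intensity trend, array pair as a block, Benjamini-Hochberg over all tested, threshold 0.05). Array pairs were computed from 18 hybridisation spike-in probe sets (mean log2 difference 0.0449 and 0.0847 within pairs, at least 0.855 between). Intervals are 95%. The residual degrees of freedom were 1 with the block and 2 without, the prior without it 2.68. Alternatives covered pseudocount, scaling, filter, probe set choice, block, prior, trend and each array left out. The members, lists, block and rule for named genes (all members, every called pathway gene, the lowest p in each list, 5 nearest genes to the member of lowest p, 3 brightest markers a list) were chosen with earlier results of these data known. Genes below the filter, other probe sets, called markers, and pathway genes that did not pass beyond the lowest p of a list were named outside that rule. Tools were R 4.3.3, limma 3.58.1, Python 3.11.15 and matplotlib 3.10.9.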

Additional observations from a re-analysis of the deposited data

How the results depend on the processing

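The counts of calls rest on the array pair block. Without it, or with it and the prior of the fit without it, limma called 0 members higher, 0 lower, 0 pathway genes higher and 0 lower, and 0 of all 27022 probe sets against 4287 in the reported fit. With 1 array left out (no block) these 4 counts ran from 0 to 0, and over all probe sets 14, 16, 0 and 0 were called. The members called higher were 1, not 2, with median centring and with no filter, where Hes1 missed the threshold. For 15 named genes under 12 alternatives that kept all arrays, 176 values were computed: 156 kept their direction and side of the threshold, 20 were no longer past it and 0 changed sign. The 156 include genes that did not pass in the reported fit and stayed so. Every called gene lost its call without the block, and again with the block and the prior of the fit without it. Notch3's probe set had no value without probe sets that may match several transcripts, nor did that of Aph1a, and dim probe sets had none with the filter at the 60th percentile.

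Differences changed sign when an array was left out for Notch2 (from -0.59 to 0.34), Jag1 (-0.08 to 0.62), Jag2 (-0.09 to 0.22), Hey1 (-0.12 to 0.31), Nrarp (-0.20 to 0.36) and Aph1a (-0.72 to 0.16). Leaving out an array sets 2 arrays of different pairs against 1, so the gap between the pairs enters the value. No paired analysis was possible from replicate numbers because the titles of the groups share fewer than 2 repeat numbers; the array pairs stand in the report. Signal limits the dim probe sets: a difference in Notch3's second probe set, Notch4 or Hey2 is not measured here.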
